A study of Mus musculus with 4 samples.

Results

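The ABC efflux transporters of the blood-brain barrier were taken as 8 named genes, Abcb1a, Abcb1b, Abcg2, Abcc1, Abcc4, Abcc5, Abca1 and Abcg1, among the 21578 genes of the deposited tables. All 8 of the 8 genes passed the filter on low counts that left 15909 genes for testing. They were measured by RNA sequencing in brain endothelial cells of C57BL/6 mice at postnatal day 0, with 2 Pd1fl/fl and 2 Pd1cKO-Tie2 libraries. Pd1fl/fl mice carry floxed alleles of Pd1 (gene symbol Pdcd1, which encodes the checkpoint receptor PD-1) and served as controls, and Pd1cKO-Tie2 mice carry the same floxed alleles together with a Tie2-Cre transgene. Tie2-Cre recombines in the endothelial lineage and is also known to be active in blood lineages, so blood cells can carry the deletion as well. Per the study's methods, cortices were dissociated with papain, red cells were lysed, and cells were sorted on CD31 and CD45. Whether the sequenced cells were cultured after the sort, and whether a library came from 1 mouse or a pool, is not given in the sources used here. The p-values below therefore measure the spread between these libraries.

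ABC transporters use the energy of ATP to move substrates across membranes. On brain endothelium, P-glycoprotein and the breast cancer resistance protein sit mainly on the blood-facing membrane and return lipophilic drugs and toxins to the blood, and members of the ABCC family export organic anions, conjugates and nucleotides. ABCA1 and ABCG1 instead export cholesterol and phospholipids to apolipoproteins and lipoprotein particles, and their genes are classical targets of the liver X receptors (LXR).

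P-glycoprotein is encoded in the mouse by a pair of neighbouring genes, Abcb1a and Abcb1b. Abcb1a lies at chr5:8660077-8748575 and Abcb1b at chr5:8798147-8866315, both on the forward strand of GRCm38. Their longest coding sequences both hold 3828 bases and were identical at 88.2% of 3816 aligned bases. Because a read can be given to either gene only where the copies differ, 2 stretches of 60 coding bases are printed from the GENCODE M21 transcripts. The first lies in exon 14 of both genes, within the longest identical run of 338 bases, and the capitals mark the codons of the ABC signature motif of the nucleotide-binding domain:
Abcb1a, chr5:8702807-8702866: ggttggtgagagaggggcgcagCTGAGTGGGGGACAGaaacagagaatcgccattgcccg
Abcb1b, chr5:8825127-8825186: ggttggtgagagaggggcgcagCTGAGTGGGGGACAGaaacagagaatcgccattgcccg
The second lies in exon 16 of both genes and is the 60-base window with the most differences, and the capitals mark its 25 differing bases:
Abcb1a, chr5:8714924-8714983: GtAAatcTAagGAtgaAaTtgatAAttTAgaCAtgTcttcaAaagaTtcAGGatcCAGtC
Abcb1b, chr5:8827363-8827422: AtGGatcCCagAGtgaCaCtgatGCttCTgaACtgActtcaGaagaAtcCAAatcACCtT
Of all 50-base windows in Abcb1a transcripts, 17.6% also occurred in other genes, among them Abcb1b and Abcb4, and for Abcb1b the share was 11.6%. The other 6 efflux genes shared at most 0.663% of their windows with another gene. Reads from a shared window cannot be told apart between the copies, and how the authors treated such reads is not given in the sources used here. An exon of Abcb1a also overlapped 553 bases of Gm42686 on the opposite strand, and Abcb1b overlapped 143 bases of Gm5106 in the same way, with the use of strand not given.

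RefSeq (GRCm38.p6) held promoter windows for 6 of the 8 genes. The Abca1 window is printed, as this gene's regulation by LXR is the best described among the members and genes of that pathway are counted below. These 250 bases, chr4:53159896-53160145 on the reverse strand, end directly before the transcription start, which equals the gene start in the deposited tables:
Abca1: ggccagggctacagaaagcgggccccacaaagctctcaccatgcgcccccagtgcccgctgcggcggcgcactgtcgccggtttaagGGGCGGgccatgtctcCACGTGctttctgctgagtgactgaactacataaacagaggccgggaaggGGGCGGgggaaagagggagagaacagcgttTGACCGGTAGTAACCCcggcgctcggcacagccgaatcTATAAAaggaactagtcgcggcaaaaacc
The capitals mark the matches to 4 of 5 motifs searched on both strands, and no match overlapped another. They are 2 GC boxes (GGGCGG), 1 E-box (CACGTG) at position -147 from the start, 1 TATA box (TATAAA) at -29, and at -67 a direct repeat of the half-sites NGGTNA and NGGTCA with 4 bases between them, read on the opposite strand. The CCAAT box (CCAAT) had no match in the window. Of 32851 RefSeq promoter windows of this length, 32.7% held a GC box, 6.02% an E-box, 12.4% a TATA box, 33.8% a CCAAT box and 0.177% such a repeat. The first half-site was widened to these letters after the Abca1 sequence had been seen, so the match is a description. None of the windows of the other members held the repeat, which is likewise a description. Abcc1 and Abcg1 had no window, and the start site of the Abcb1a window lies 92986 bases from its deposited gene start.

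The libraries held between 13714374 and 24146115 counts, and the deepest was Pd1cKO-Tie2 replicate 1. Levels are given as CPM, the counts scaled by edgeR's TMM method to a common total, and where a library held no count the limit of 3 counts corresponds to 0.126 to 0.220 CPM. The deleted gene Pdcd1 had 32 counts in 1 control library (replicate 1) and none in the other 3 libraries, so its counts do not check the labels of those 3. The label of the cells was checked against 18 endothelial markers. The tight junction gene Cldn5 stood between 4774 and 7008 CPM, and the summed level of the markers was 17704 and 16675 CPM in the controls against 21513 and 22340 CPM after deletion. All 18 were higher in both Pd1cKO-Tie2 libraries than in both Pd1fl/fl libraries, with a median log2 difference of 0.35, beside 17.7% of all tested genes that were higher in this way. In the opposite direction, 18.1% of all tested genes lay below both controls in both Pd1cKO-Tie2 libraries. Among the markers of other cells, 7 of 10 astroglial and 8 of 12 microglial and macrophage markers did so. Their summed levels were 964 and 955 against 624 and 457 CPM for astroglia and 2301 and 2778 against 884 and 1964 CPM for microglia. Neutrophil markers summed to 914 CPM in replicate 1 of the controls and to 24.6, 55.5 and 1.32 CPM in the others. Pericyte and smooth muscle markers summed to 5769 CPM in that same library and to between 3764 and 3866 CPM in the others. Neuronal markers ranged from 976 to 1346 CPM, erythroid markers from 557 to 1070 CPM, oligodendrocyte lineage markers from 112 to 213 CPM, fibroblast markers from 30.5 to 82.5 CPM and choroid plexus markers from 4.58 to 12.8 CPM. The choroid plexus markers Kl, Folr1 and Kcnj13 and the fibroblast marker Dpt were at 0 in every library. A gene listed in none of the tables is given as 0 here and could hold up to 4 counts in a library. The part of these differences in the values of the efflux genes was not tested, and in such bulk RNA fewer cells of a type and less RNA per cell cannot be told apart.

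**Figure D1:**
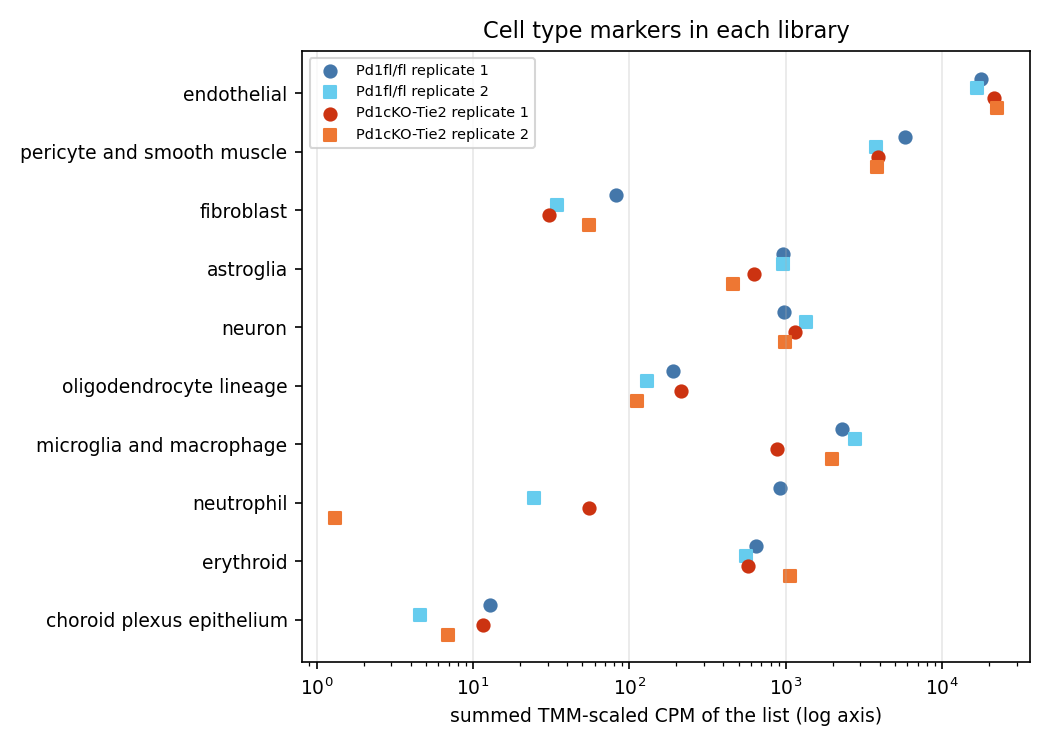
Summed TMM-scaled CPM of each cell type marker list (log axis) in each of the 4 libraries, with circles for replicate 1 and squares for replicate 2 of each genotype. The endothelial sums of the Pd1cKO-Tie2 libraries (red and orange, 21513 and 22340) lie above both Pd1fl/fl sums (blue), and the astroglial sums lie below them.

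The efflux genes fell into 3 tiers of expression, a top tier of 5 genes, Abcc5 alone, and a bottom tier of Abcc1 and Abcb1b. To compare genes with one another, CPM was divided by the kilobases of exon of each gene in GENCODE M21 (CPM per kb). Abcb1a had the highest mean level at 56.7 CPM per kb over the 4 libraries, followed by Abcg2 at 46.7, Abcg1 at 43.1, Abca1 at 30.8 and Abcc4 at 26.3. Abcc5 stood at 5.34, Abcc1 at 0.657 and Abcb1b at 0.311 CPM per kb. The ranges over the libraries did not overlap between tiers. The lowest Abcc4 value was 21.7 against a highest Abcc5 value of 5.96 CPM per kb. The lowest Abcc5 value was 5.07 against a highest Abcc1 value of 0.793 CPM per kb. Within the top tier the ranges of Abcb1a and Abcg2 overlapped, as did those of Abcg2 and Abcg1 and those of Abca1 and Abcc4, while the lowest Abcg1 value (41.1) was above the highest Abca1 value (37.9). Abcb1a was nonetheless above Abcg2 in 4 of 4 libraries. That order depends on the length used: per kb of the longest full-length coding transcript, Abcg2 led with 66.6 and Abcb1a followed with 62.1, Abcg1 had 53.9, and the order of the other 5 genes was the same. Among 38 tested genes of the whole ABC family, only Abcf2, a family member without membrane-spanning domains that is not a transporter, had a higher level than Abcb1a per kb of exon, at 59.8 CPM per kb.

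**Figure D2:**
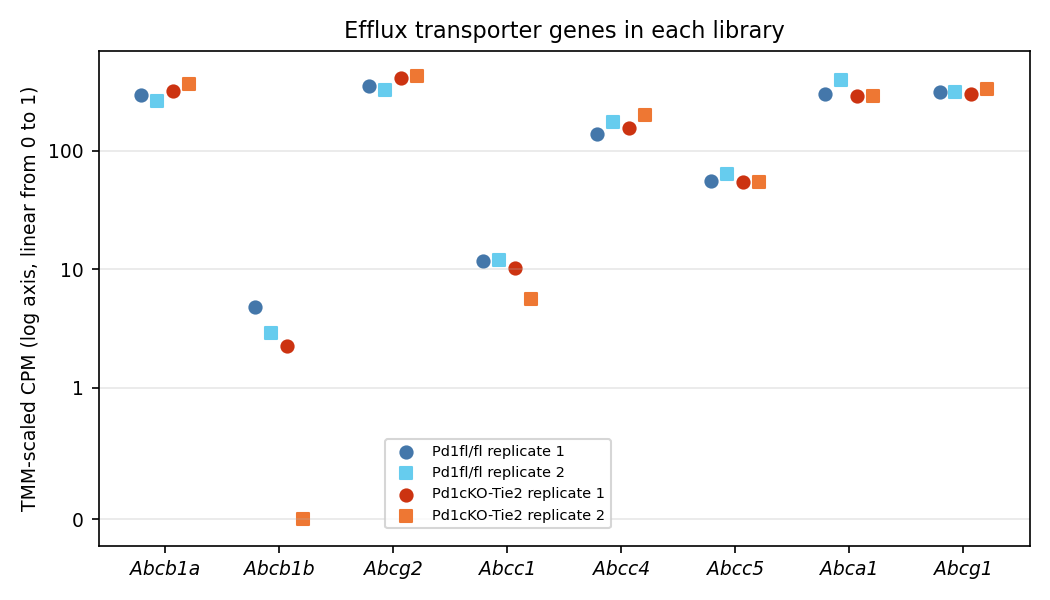
TMM-scaled CPM of the 8 efflux genes in each of the 4 libraries (log axis above 1, linear from 0 to 1), with blue for Pd1fl/fl and red or orange for Pd1cKO-Tie2. Abcb1a and Abcg2 are higher in both Pd1cKO-Tie2 libraries, Abcb1b, Abcc1, Abcc5 and Abca1 are lower in both, and the Abcb1b value of Pd1cKO-Tie2 replicate 2 is 0.

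The main comparison asked whether the loss of endothelial Pd1 went with a change in the transcripts of these transporters. By the study's own criterion, which asks for 2-fold or more in either direction and an unadjusted p no higher than 0.05, 0 of 8 efflux genes changed in edgeR's quasi-likelihood test, beside 640 of 15909 tested genes (4.02%), 224 higher (1.41%) and 416 lower (2.61%). At an unadjusted p under 0.05, 0 of the 8 passed in edgeR and 1 in DESeq2, which was Abcg2. With the Benjamini-Hochberg method applied across all 15909 genes, the members' adjusted p-values ranged from 0.839 to 1.000 in edgeR, where 0 of all genes passed and 1016 (6.39%) had an unadjusted p under 0.05. DESeq2 called 116 genes (0.729%) at an adjusted p under 0.05 and 0 of the 8. Both Pd1cKO-Tie2 libraries lay above both controls for Abcb1a and Abcg2 (2 of 8, beside 17.7% of all tested genes) and below them for Abcb1b, Abcc1, Abcc5 and Abca1 (4 of 8, beside 18.1%). Together 6 of 8 genes did not overlap between genotypes, beside 35.8% of all tested genes. The median log2 fold change was -0.06 over the 8 genes and 0.00 over all tested genes.

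Abcb1a encodes the main P-glycoprotein of brain capillaries. It held 4265 and 3762 counts in the controls and 7583 and 4968 in the Pd1cKO-Tie2 libraries, which is 296 and 265 against 317 and 364 CPM. Both Pd1cKO-Tie2 libraries were thus above both controls. The control mean was 280 ± 21.8 CPM and the Pd1cKO-Tie2 mean 341 ± 32.9 CPM (SD, n = 2 each). The log2 fold change was 0.28 ± 0.15 (SE) with a 95% interval from -0.10 to 0.66, and edgeR's quasi-likelihood test gave an adjusted p = 0.913. Without Pd1cKO-Tie2 replicate 2 the value was 0.18. The interval with all libraries leaves out a 2-fold change in either direction, since in linear terms it runs from 0.932-fold to 1.58-fold.

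Abcb1b, the second P-glycoprotein gene, is known as the isoform of adrenal gland, kidney and pregnant uterus and is induced in cultured brain endothelial cells. It held 69 and 41 counts in the controls and 54 and 0 after deletion, or 4.79, 2.89, 2.26 and 0 CPM. Its share of all counts on the 2 P-glycoprotein genes was 1.59% in replicate 1 of the controls (exact 95% binomial interval 1.24 to 2.01%) and 1.08% in their replicate 2 (0.775 to 1.46%). After deletion it was 0.707% in replicate 1 (0.532 to 0.922%), and in replicate 2 there were 0 of 4968 counts, which allows a share of up to 0.0604% by the limit of 3 counts and 0.0742% by the exact interval. These intervals and limits cover counting error only. Abcb1a thus held nearly all P-glycoprotein counts in each library. Abcb1b's log2 fold change was -1.74 ± 1.92 (SE) with an adjusted p = 1.000 in edgeR's test, an error that spans both directions, and 1 library at 0 decides the size of that value: without it the log2 fold change was -0.76. Reads from the stretch printed in exon 14 cannot separate the pair, whereas those from the window in exon 16 can.

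Abcg2 encodes the breast cancer resistance protein, which shares many substrates with P-glycoprotein. Its 22 exon blocks lie at chr6:58584523-58695676 on the forward strand. Its counts were 5112 and 4648 in the controls and 9895 and 5830 after deletion, or 355 and 327 against 414 and 427 CPM. The lowest Pd1cKO-Tie2 library stood above the highest control. The means were 341 ± 19.2 and 421 ± 9.12 CPM (SD, n = 2 each), and the log2 fold change was 0.30 ± 0.14 (SE), with an interval from -0.03 to 0.64. Its adjusted p was 0.839 by edgeR and 0.643 by DESeq2, the smallest of the 8 genes by either tool.

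Abcb1a and Abcg2, which work as partners at the barrier, differed between genotypes by nearly the same amount. Per kb of exon, the ratio of Abcg2 to Abcb1a was 0.806 and 0.830 in the controls against 0.877 and 0.789 after deletion, so the genotypes overlapped. The endothelial markers differed in the same direction by a median of 0.35 (log2), beside 0.28 for Abcb1a and 0.30 for Abcg2. When each library was instead scaled to the summed counts of the 18 endothelial markers, a setting chosen after the data had been seen, the log2 fold changes became -0.07 ± 0.14 (SE) for Abcb1a and -0.05 ± 0.12 for Abcg2. Per count of endothelial marker RNA, then, neither gene's fitted value was above 0. That sum was led by the barrier genes Cldn5 and Slc2a1, which held 79523 and 51079 of 255211 marker counts in Pd1fl/fl replicate 1. The RNA of each was itself higher in both Pd1cKO-Tie2 libraries. Their log2 fold changes were 0.40 ± 0.10 and 0.35 ± 0.08 (SE, edgeR adjusted p = 0.735 for each). The scaling thus rests largely on Cldn5 and Slc2a1. That scaling moved the median of all tested genes by -0.35 and the calls at 2-fold from 35.0% higher to 13.9% higher, so its fold changes are relative to that shift.

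**Figure D3:**
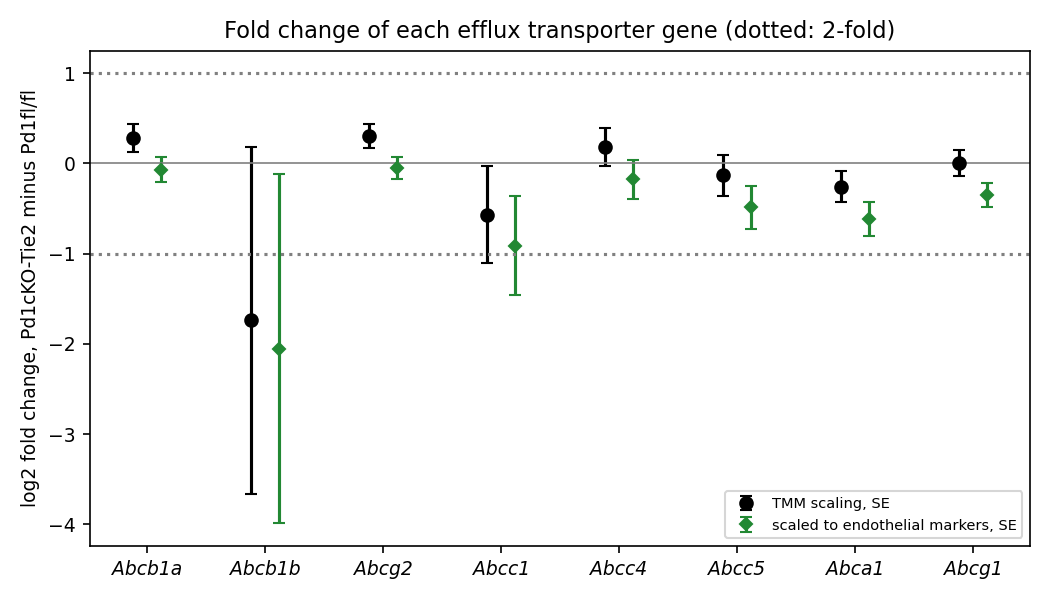
Log2 fold change of each efflux gene (Pd1cKO-Tie2 minus Pd1fl/fl, n = 2 each) with its standard error, after TMM scaling (black circles) and after scaling to the endothelial markers (green diamonds), with dotted lines at 2-fold. Abcb1a and Abcg2 move from 0.28 and 0.30 to -0.07 and -0.05, and every gene is lower in the second scaling.

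Abcc4 (MRP4), which exports cyclic nucleotides, nucleoside analogues and prostaglandins, had the highest level of the 3 ABCC members. The controls held 2003 and 2494 counts and the Pd1cKO-Tie2 libraries 3736 and 2741, or 139 and 176 against 156 and 201 CPM. The genotypes overlapped, since Pd1cKO-Tie2 replicate 1 lay between the controls. Its fold change was 0.18 ± 0.21 on the log2 scale (SE), with an interval from -0.34 to 0.71 (edgeR adjusted p = 1.000), and it ranged from -0.01 to 0.36 with single libraries left out. The gene spans chr14:118482692-118706219 on the reverse strand.

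Abcc5 (MRP5), another exporter of cyclic nucleotides, lies at chr16:20331303-20426394 on the reverse strand. The controls held 802 and 904 counts of it and the Pd1cKO-Tie2 libraries 1305 and 740. In CPM these were 55.6 and 63.7 against 54.6 and 54.2, so both Pd1cKO-Tie2 libraries were lower, by less than the distance between the 2 controls. On the log2 scale the difference was -0.13 ± 0.23 (SE), with an interval from -0.70 to 0.43 (edgeR adjusted p = 1.000). It was -0.23 without Pd1fl/fl replicate 1 and -0.03 without Pd1fl/fl replicate 2.

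Abcc1 (MRP1), an exporter of glutathione conjugates and leukotriene C4 that is abundant in choroid plexus epithelium, was the least expressed ABCC member here. At chr16:14361558-14475737, forward strand, it held 169 and 170 counts in the controls and 246 and 77 after deletion, or 11.7 and 11.98 against 10.3 and 5.64 CPM. Most of the difference came from Pd1cKO-Tie2 replicate 2. With all 4 libraries it amounted to -0.57 ± 0.54 on the log2 scale (SE), with an interval from -1.90 to 0.77 (edgeR adjusted p = 1.000), and without that library it was -0.20, while without Pd1cKO-Tie2 replicate 1 it was -1.06.

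The ratio of Abcc4 to Abcc5 per kb of exon was 4.18 and 4.61 in the controls against 4.79 and 6.19 after deletion. It is a ratio within each library, so the scaling does not touch it, and it was higher in both Pd1cKO-Tie2 libraries. No p is given for it, as an exact permutation test of 2 libraries against 2 cannot go below 0.333.

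Abca1, the cholesterol exporter that loads lipid-poor apolipoproteins, occupies chr4:53030787-53159895 behind the promoter printed above. Its counts were 4352 and 5579 in the controls and 6888 and 4000 after deletion. The control levels were 302 and 393 CPM and the Pd1cKO-Tie2 levels 288 and 293 CPM, so the latter were lower than both controls while Pd1fl/fl replicate 1 was close to them. The means were 347 ± 64.4 and 291 ± 3.33 CPM (SD, n = 2 each). Its log2 fold change was -0.26 ± 0.18 (SE), with an interval from -0.69 to 0.18 (edgeR adjusted p = 0.954), and without Pd1fl/fl replicate 1 or 2 it was -0.44 or -0.05. Scaled to the endothelial markers it was -0.62 ± 0.19, with an interval from -1.08 to -0.15 that lies below 0 (edgeR adjusted p = 0.390). The median of all tested genes under that scaling was -0.36, which lies inside this interval. Abca1 is also expressed by astrocytes and microglia, whose markers were lower in the Pd1cKO-Tie2 libraries as given above, and their part in the Abca1 value was not tested.

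Abcg1 passes cholesterol on to lipoprotein particles. It lies on chromosome 17 at 31057698 to 31115777 in the deposited tables, a position that differs from GENCODE M21. The controls held 4505 and 4483 counts and the Pd1cKO-Tie2 libraries 7163 and 4505, or 313 and 316 against 300 and 330 CPM. The Pd1cKO-Tie2 libraries lay on either side of the controls. The log2 fold change was 0.00 ± 0.14 (SE), with an interval from -0.34 to 0.35 (edgeR adjusted p = 1.000). Scaled to the endothelial markers it was -0.35 ± 0.13, with an interval from -0.68 to -0.02 (edgeR adjusted p = 0.421), which equals the shift of the median gene under that scaling.

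Ratios within a library were also formed between further pairs of abundant members. The ratio of Abca1 to Abcb1a per kb of exon was 0.540 and 0.784 in Pd1fl/fl against 0.480 and 0.426 in Pd1cKO-Tie2 libraries. That of Abcg1 to Abcg2 was 0.985 and 1.08 against 0.809 and 0.863. The ratio of Abca1 to Abcg1 was 0.680 and 0.876 against 0.677 and 0.625, where the nearest libraries of the 2 genotypes were almost equal. In these 3 ratios both Pd1cKO-Tie2 libraries were below both controls, although the size rests largely on Pd1fl/fl replicate 2 for those with Abca1. The ratio of Abcc4 to Abcb1a was 0.403 and 0.569 in Pd1fl/fl against 0.423 and 0.473 in Pd1cKO-Tie2 libraries, so there the genotypes overlapped. The pairs were chosen with the levels known and are described without a test, and they do not stand for the lipid exporters against the other members in general, since Abcg1 was not lower against Abcc1.

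Of the other ABC family genes, 37 were in the tables and 30 were tested. None of the 30 met the criterion, beside the 4.02% of all tested genes. In 4 of these genes both Pd1cKO-Tie2 libraries were above the controls and in 4 both were below, beside 17.7% and 18.1% of all tested genes, and the median log2 fold change was -0.06. The most expressed per kb of exon were Abcf2, Abcf1 and Abce1, which act in translation and ribosome recycling and not in transport. Abcf2 had 59.8 CPM per kb (log2 fold change -0.01 ± 0.20 SE), Abcf1 had 23.5 (0.27 ± 0.20) and Abce1 had 23.1 (-0.22 ± 0.21). Abcb4, the phosphatidylcholine translocator of bile canaliculi, is named because its sequence is shared with Abcb1a and Abcb1b. Its counts were 7 and 0 in the controls and 106 and 20 after deletion (edgeR adjusted p = 0.922).

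**Figure D4:**
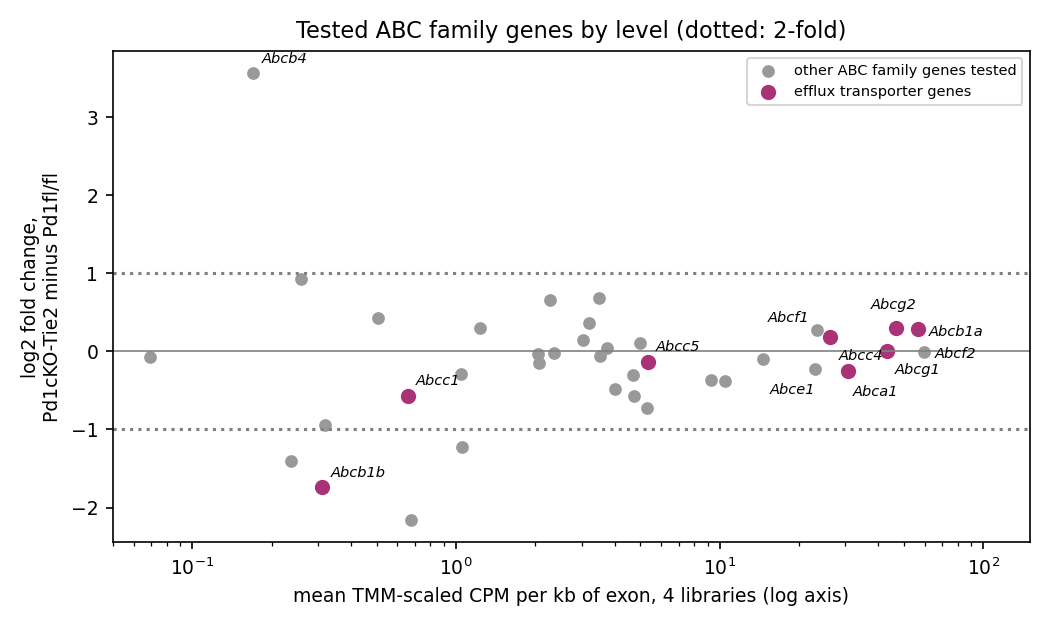
Log2 fold change (Pd1cKO-Tie2 minus Pd1fl/fl) of the 38 tested ABC family genes against their mean TMM-scaled CPM per kb of exon over the 4 libraries (log axis), with the 8 efflux genes in purple and dotted lines at 2-fold. The 5 most abundant efflux genes lie between -0.26 and 0.30, and the points past 2-fold are all at low levels and did not pass the test.

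The precision was best for the abundant members. The SE of the log2 fold change was between 0.14 and 0.23 for the 6 members above 50 CPM, beside a median of 0.222 over the 4163 tested genes with a mean of at least 50 CPM. Of those 4163 genes, 44 (1.06%) had a fitted change of 2-fold or more at any p. For Abcb1b, with a mean of 3.84 CPM in Pd1fl/fl, the SE was 1.92 with all libraries and 1.24 without Pd1cKO-Tie2 replicate 2, the library at 0.

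Factors that control the efflux genes were counted as a list of 20 regulators. Of these, 16 were tested and 0 met the criterion, beside 4.02% of all tested genes. In edgeR's test 1 had an unadjusted p under 0.05 (6.39% of all tested genes did), and the median log2 fold change was 0.24. Of the 16, 3 were above both controls in both Pd1cKO-Tie2 libraries and 0 below them, beside 17.7% and 18.1% of all tested genes. The xenobiotic receptor genes Nr1i2 (PXR) and Nr1i3 (CAR), which induce Abcb1a and Abcg2 in liver and other tissues, were at 0 in every library, as were Vdr and Esr1. Nr3c1, which encodes the glucocorticoid receptor, had the smallest p. It stood at 116 and 126 CPM in the controls and at 183 and 178 CPM after deletion, a log2 difference of 0.58 ± 0.16 (SE, edgeR adjusted p = 0.735). Ppard, a nuclear receptor for fatty acids, followed with 10.8 and 13.8 against 21.1 and 18.6 CPM (0.69 ± 0.38 SE, edgeR adjusted p = 0.913).

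Genes of the LXR response and of cholesterol handling, the setting of Abca1 and Abcg1, numbered 20, and all 20 were tested. None met the criterion with all libraries, beside 4.02% of all tested genes. In edgeR's test 6 had an unadjusted p under 0.05 (beside 6.39% of all tested genes), and the median log2 fold change was -0.13. Both Pd1cKO-Tie2 libraries were above the controls in 5 of them and below in 7, beside 17.7% and 18.1% of all tested genes. Of the 6, 4 were lower and 2 higher. The higher ones, named after their values were seen, were the phospholipid transfer protein gene Pltp, at 245 and 188 CPM in the controls against 314 and 289 CPM after deletion, and the phospholipid-remodelling enzyme gene Lpcat3, at 233 and 282 CPM against 338 and 344 CPM. Lrp1, the endocytic receptor for apolipoprotein E and amyloid beta, stood at 181 and 151 CPM in the controls and at 86.3 and 108 CPM after deletion (log2 fold change -0.77 ± 0.21 SE, edgeR adjusted p = 0.735). Pericytes, astrocytes and microglia express Lrp1 as well, and the part of their RNA in its value was not tested.

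The carriers and enzymes that work in series with efflux, the uptake carriers of drugs and anions and the enzymes that conjugate their substrates, were counted as 21 genes. Of 20 tested, 1 was lower by the criterion and 0 higher (2 in all without Pd1cKO-Tie2 replicate 1), 2 had an unadjusted p under 0.05, and the median log2 fold change was 0.18. Over all tested genes these shares were 4.02% by the criterion, 2.61% lower by it and 6.39% by p alone. The list's counts by the criterion and by p are thus near the background. Both Pd1cKO-Tie2 libraries were above both controls in 7 of the 20 and below them in 3, beside 17.7% and 18.1% of all tested genes. The gene past the criterion was Cyp1b1, a cytochrome P450 of endothelium and pericytes that oxidises estrogens and polycyclic hydrocarbons. It held 87 and 71 counts in the controls and 0 in both Pd1cKO-Tie2 libraries (edgeR adjusted p = 0.735). Against 3 counts per library this is at least 32.0-fold lower, a bound that covers counting error only. The part of pericyte RNA in the Cyp1b1 value was not tested. Slco1c1, the thyroxine carrier of the barrier, stood at 1790 and 1848 CPM in the controls and at 2171 and 2287 CPM after deletion (log2 fold change 0.29 ± 0.10 SE, edgeR adjusted p = 0.735), a difference of the size seen for Abcb1a and Abcg2.

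Partners that anchor transporters at the membrane or move them through the cell were counted as 12 genes, of which 11 were tested and Pdzk1 was at 0. None met the criterion with all libraries, beside 4.02% of all tested genes. In edgeR's test 3 had an unadjusted p under 0.05 (beside 6.39% of all tested genes), and the median log2 fold change was -0.01. Of the 11, 4 were above both controls in both Pd1cKO-Tie2 libraries and 2 below them, beside 17.7% and 18.1% of all tested genes. Slc9a3r2 (NHERF2), a PDZ scaffold, stood at 383 and 261 CPM in the controls and at 586 and 587 CPM after deletion (0.86 ± 0.21 SE, edgeR adjusted p = 0.735). Ezr, which encodes the membrane-actin linker ezrin, stood at 92.4 and 95.9 against 47.5 and 59.3 CPM (-0.82 ± 0.22 SE, edgeR adjusted p = 0.735). Ezrin is also abundant in astrocytes, whose markers were lower in the same libraries, and their part in the Ezr value was not tested.

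Likeness to a member over the 4 libraries was measured by the root mean square difference of log2 CPM centred on each gene. The most alike genes are named, among 9448 with a mean of at least 10 CPM and a count in every library. For Abcb1a these were Mfsd7c (0.014), a choline carrier of brain endothelium, Ggta1 (0.018), a galactosyltransferase, and Sh3glb1 (0.019), a membrane-curving protein. Abcg2 was number 120 in that order, with a difference of 0.058. For Abca1 they were Itgav (0.016), the integrin alpha V subunit, the transcription factor gene Nfib (0.022) and the sorting nexin gene Snx11 (0.031). Abcc5 was number 136 in that order, with 0.088. With 4 libraries, many genes share such a pattern, and these values are given as a description.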

How the data were processed

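Reads from 2 Pd1fl/fl and 2 Pd1cKO-Tie2 libraries were aligned and counted by the authors, whose processing notes name Bowtie2 2.2.3, TopHat2 2.0.12, HTSeq 0.6.0 and mm9. The deposited counts are whole reads per gene, not normalized, in 4 tables that each pair 2 libraries. The gene positions in them are of GRCm38, and 90.04% equal GENCODE M21. The tables also hold scaled values and the authors' own fold changes and p-values, which were not used. 10 broken lines were skipped, and genes missing from a library's tables were given a count of 0 there. The second Pd1cKO-Tie2 column matches no label number and is known by genotype alone.

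Counts of 15909 genes passing filterByExpr were fitted with edgeR 4.0.16 (R 4.3.3), by its quasi-likelihood F test with TMM scaling and no covariate, after the fit had been tested on simulated data. The common biological coefficient of variation was 0.610. DESeq2 1.42.0, limma-voom (limma 3.58.1), other filters and scalings, and leaving out each library were the alternatives, and scaling to endothelial markers was added after seeing the data. Named were all 8 members, other family genes and related genes past 2-fold or leading by level or p, and genes of like pattern. One gene that this rule names is not reported here. The members and lists were chosen with earlier results of these data known.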

Additional observations from a re-analysis of the deposited data

How the results depend on the processing

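The count of efflux genes past 2-fold with a p of 0.05 or less was 0 under DESeq2, limma-voom, both other filters and all other scalings, and ranged from 0 to 1 when single libraries were left out. The 1 was Abcb1b without Pd1cKO-Tie2 replicate 1, where the remaining Pd1cKO-Tie2 library is at 0: there its level was at least 17.5-fold lower than the Pd1fl/fl mean against 3 counts, and the lone library is assumed to vary like the others. Scaling to the endothelial markers, chosen after seeing the data, gave 996 calls over all genes in place of 640 and a median of -0.42 over the 8 members in place of -0.06, since it shifts every gene down. Under it Abcb1a (-0.071), Abcg2 (-0.048), Abcc4 (-0.18) and Abcg1 (-0.35) had the opposite sign, and 0 members were then higher and 6 lower without overlap. Abcg1, whose main value is 0.00, was also below 0 under limma-voom (-0.0093), a filter of at least 10 counts (-0.00095), upper quartile scaling (-0.0016) and library size alone (-0.060), and ranged from -0.068 to 0.077 with single libraries left out. Abcc4 ranged from -0.0088 to 0.36 likewise, with the lowest value without Pd1cKO-Tie2 replicate 2. Abcb1a ranged from 0.18 to 0.38 and Abcc5 from -0.23 to -0.03 in the same way. Apart from the changes of sign given above, each member kept its sign under every alternative run. With single libraries left out, the count by the same criterion ranged from 0 to 2 among the LXR and cholesterol genes, from 1 to 2 among uptake carriers and conjugating enzymes, and from 0 to 1 among both the anchoring partners and the regulators. With the endothelial scaling it was 4 among the LXR and cholesterol genes, 2 among the carriers and enzymes and 1 among the anchoring partners, and limma-voom gave 2 among the carriers and enzymes. The cause of these differences was not tested. Abcb1b could not be tested with at least 10 counts in every library. Overlap between libraries was counted only under the scalings, and leaves no value for the other tests or with a library left out. No paired analysis was possible because the labels give no pairing of libraries. The genotypes share only 1 replicate number in them, and whether it marks a pair is not given. The widest errors were those of Abcb1b and Abcc1, the members with the fewest counts, whose Pd1cKO-Tie2 libraries also lay far apart, and the parts of depth and spread in those errors were not tested.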
